A study of Rattus norvegicus with 24 samples.

Results

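The genes encoded by the mitochondrial genome were examined in the cerebral cortex of newborn Sprague Dawley rats. They were taken as every gene that the deposited annotation (Rnor_5.0) places on chromosome MT, which gave 37 of 26404 genes, and were divided by length into 22 tRNA-sized genes of 75 nt or less and 15 longer genes of 204 nt or more. RNA came from the right cerebral cortex of 24 pups at postnatal day 0, with an RNA integrity number above 9.5. In the saline pump group, 12 pups were born to 3 dams that had been anesthetized with isoflurane late in gestation for implantation of a pump filled with saline, and in the spontaneous labor group 12 pups were born to 3 unoperated dams. No dam in either group received oxytocin, all pups were delivered vaginally, and each litter gave 2 male and 2 female pups. Anesthesia, surgery and the implanted pump came together, so their separate parts in any difference cannot be told apart, and the number of replicates for the condition is 3 litters. The comparison addressed whether this exposure of the dam changed the transcripts of the newborn cortex.

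The mitochondrial genome is a small circle from which both strands are transcribed as long precursors. The tRNAs lie between the other genes and are cut out, which releases the mRNAs and rRNAs. Its mRNAs encode core subunits of the respiratory chain and of the ATP synthase, and its rRNAs and tRNAs serve the ribosome that translates them inside the organelle. Cortical cells depend on this chain for most of their ATP, and the remaining subunits come from nuclear genes. The files pair no gene with a symbol, so the 37 genes were named from their place, strand and length in the gene order that vertebrates share. This gave 13 protein-coding genes, 2 rRNA genes and 22 tRNA genes. Of the protein-coding genes, 12 lie on the plus strand and 1, Mt-nd6, on the minus strand, together with 8 of the tRNA genes. The tissue could not be checked against marker genes for the same reason.

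The libraries held 12170547 to 19260066 counts per pup, and mitochondrial genes took 4.74 to 6.44% of them, with a median of 5.35% (n = 24). With totals of this size, the 95% Wilson interval of a pup's mitochondrial share was at most 0.0272 percentage points wide. These intervals cover counting error only. In every library the protein-coding genes took most of the mitochondrial counts (84.2 to 94.9%), the rRNA genes took 4.83 to 15.6%, and the tRNA-sized genes took 0.172 to 0.29%. The libraries had been selected with oligo-dT, so each RNA, rRNA and tRNA included, is represented only as far as that selection retained it. These shares are therefore not the proportions of the RNAs in the cell. The levels of single genes given below, mRNAs included, have the same limit.

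**Figure D1:**
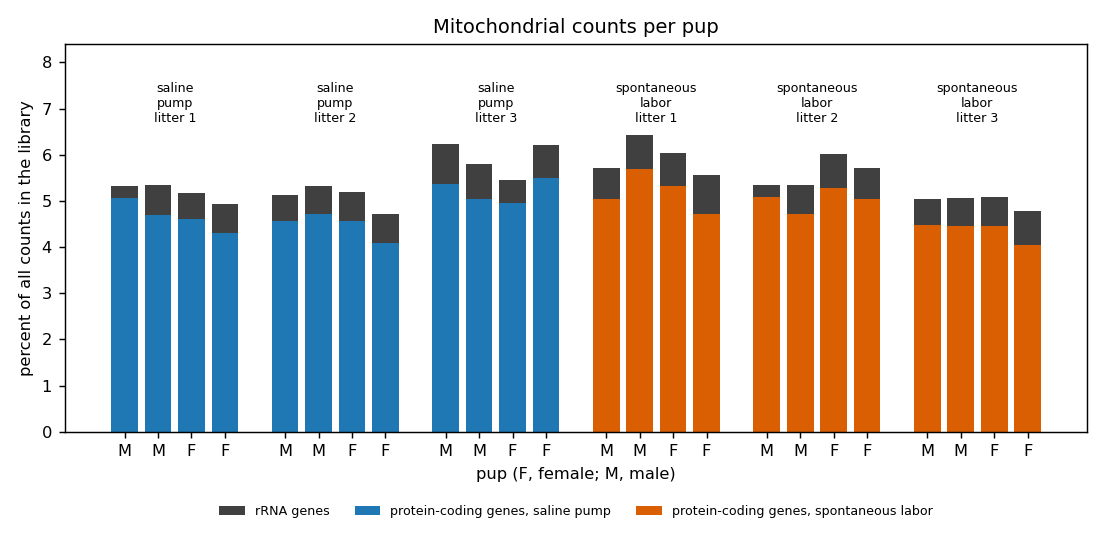
Percent of all counts in each of the 24 libraries that fell on the 13 protein-coding mitochondrial genes (colored) and the 2 mitochondrial rRNA genes (dark grey, stacked), by litter and sex. The total ranged from 4.74 to 6.44%, and the dark segment is thin in the first male pup of saline pump litter 1 and of spontaneous labor litter 2.

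Before any comparison, 2 libraries stood apart by their rRNA genes. The first male pup of saline pump litter 1 had 4.83% of its mitochondrial counts on the rRNA genes (95% Wilson interval 4.79 to 4.87%), and the first male pup of spontaneous labor litter 2 had 4.87% (4.82 to 4.91%). The other 22 pups lay between 9.18 and 15.6%, with a median of 11.8%, so neither value overlapped with them. These were also the libraries with the highest and the next highest total, 19260066 and 17281461 counts. Mt-rnr1, the small-subunit rRNA (MT, positions 68 to 1025), was at 1155 and 1095 CPM in these pups, against 2372 to 4276 CPM in the other 22. Mt-rnr2, the large-subunit rRNA (MT, positions 1094 to 2664), was at 1426 and 1512 CPM, against 2655 to 4483 CPM. Relative to the mean of the 3 littermates, Mt-rnr1 differed by -1.35 and -1.48 on the log2 scale and Mt-rnr2 by -1.15 and -1.29. The protein-coding genes of the same pups differed from littermates by only -0.17 to 0.25. The tested tRNA-sized genes differed in both directions, from -0.56 (Mt-tl1) to 0.85 (Mt-tg). Mt-ts1, the most counted of them, was above littermates in both pups, by 0.63 and 0.46. The tRNA-sized share of mitochondrial counts was 0.29 and 0.263% in these pups, against 0.172 to 0.261% in the other 22. Of 14348 genes compared, 37 (0.258%) were more than 1 log2 unit below littermates in both pups. These were the 2 rRNA genes and 35 nuclear genes, while 6 of the 14348 genes were more than 1 unit above. Of the 35 nuclear genes, 18 lay on chromosome 17. The share of chromosome 17 among all genes compared was not determined, so the 18 cannot be read as an excess. The part that total counts, library preparation or these nuclear genes have in the low rRNA values was not tested. The tests of the rRNA genes by condition, litter and sex are given with and without these pups, and correlations within litters only without them.

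The protein-coding genes were among the most abundant transcripts in these libraries. Levels were compared between genes as RPKM, which divides CPM (counts scaled to the total of the library) by gene length. Of all 26404 genes, the 20 with the highest mean RPKM included 13 mitochondrial genes. Both rRNA genes were among these 13, while the protein-coding Mt-nd5 and Mt-nd6 ranked lower, at 31 and 37 of all genes. Mt-atp6, a subunit of the proton channel of the ATP synthase, was the highest of the mitochondrial genes at 9089 ± 735 RPKM (SD over 6 litter means). Mt-co3 followed at 8345 ± 603, Mt-co1 at 7081 ± 689, and Mt-co2 at 5684 ± 443, and each of the first 3 exceeded the next gene in 24 of 24 pups. Mt-co1, Mt-co2 and Mt-co3 encode the core of complex IV (cytochrome c oxidase). Mt-cyb, the only mitochondrially encoded subunit of complex III, was at 5275 ± 344 RPKM, below Mt-co2 in 22 of 24 pups.

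Mt-atp8, the other ATP synthase subunit, was at 4346 ± 669 RPKM and exceeded the next gene, Mt-nd3, in only 15 of 24 pups, so the order of these neighbours was not settled. The genes of complex I (NADH dehydrogenase) formed the lower part of the order. Mt-nd3 was at 3878 ± 221 RPKM, Mt-nd1 at 3634 ± 319, Mt-nd2 at 2552 ± 201, and Mt-nd4l at 2210 ± 139. Mt-nd4 was at 1993 ± 193 RPKM, Mt-nd5 at 1257 ± 97.3, and Mt-nd6 was the lowest at 1187 ± 106. Mt-nd5 exceeded Mt-nd6 in 17 of 24 pups. The rRNA genes fell within the range of the complex I genes, Mt-rnr1 at 3122 ± 443 RPKM and Mt-rnr2 at 2109 ± 261. The highest and the lowest of the 15 genes differed 7.66-fold per length.

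**Figure D2:**
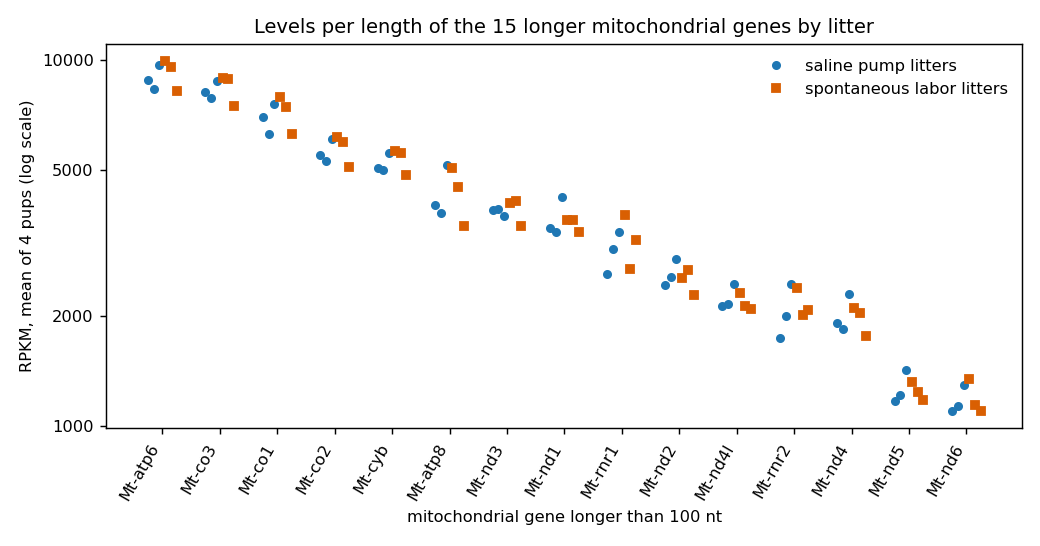
RPKM (log scale) of the 15 longer mitochondrial genes, ordered by their mean over 24 pups, with each point the mean of the 4 pups of a litter (circles, saline pump; squares, spontaneous labor). The order runs from Mt-atp6 at 9089 RPKM to Mt-nd6 at 1187 RPKM, and the litters of both conditions are intermingled for every gene.

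Some of these levels depend on how overlapping genes were counted. Only reads that fell unambiguously on a gene were counted, and Mt-atp8 and Mt-atp6 share 43 nt, Mt-nd5 and Mt-nd6 share 23 nt on opposite strands, and Mt-nd4l and Mt-nd4 share 7 nt. Reads that cannot be assigned within the stretches shared on one strand are missing from both genes, and of these Mt-atp8 is the shortest at 204 nt. For Mt-nd5 and Mt-nd6 this holds only if strand was ignored. Whether the counting used strand is not given in the sources used here. Reads from one strand and from the opposite strand can therefore not be told apart, which applies to Mt-nd6 (MT, positions 13543 to 14061) and to the minus-strand tRNA genes.

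By respiratory complex, the 3 genes of complex IV took 44.2% of the protein-coding mitochondrial counts (median over 24 pups, range 42.1 to 46%). The 7 genes of complex I took 28.6% (26.6 to 30.9%), the 2 ATP synthase genes 14.7% (14 to 15.2%) and Mt-cyb 12.5% (11.8 to 13.4%). These ranges did not overlap, so the order of the complexes was the same in each pup. Complex I genes took 29.1 ± 0.781% in the litters of saline pump dams and 28.1 ± 0.784% in those that labored spontaneously (mean ± SD, n = 3 each), and complex IV genes 43.9 ± 0.762% and 44.6 ± 0.717%.

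No mitochondrial gene passed the test between spontaneous labor and saline pump litters. Of the 28 genes that had more than 1 CPM in at least 4 pups (all 15 longer and 13 tRNA-sized genes), 0 passed an adjusted p of 0.05 in edgeR's quasi-likelihood test on counts summed per litter, and 0 of all 14348 genes tested did (0%). At an unadjusted p under 0.05 the numbers were 0 of 28 mitochondrial genes, against 1.67% of all genes tested. DESeq2 on the same litter sums called 0 mitochondrial genes and gave 1 at an unadjusted p under 0.05, against 1.52% of all genes. The median log2 fold change (spontaneous labor minus saline pump) was 0.02 over the 28 genes and 0.0001 over all genes tested.

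The 13 protein-coding genes had a narrower range of fold changes than the tRNA-sized genes. Their fold changes ran from -0.07 to 0.05 on the log2 scale, 8 above and 5 below 0, and their 95% intervals all included 0. The widest interval was that of Mt-atp8, from -0.29 to 0.30, and the others were narrower, such as -0.19 to 0.10 for Mt-nd4l. Among them Mt-nd2, a complex I subunit, had the smallest p. Its litter means were 2520, 2648 and 2966 CPM in saline pump litters 1 to 3 and 2633, 2782 and 2363 CPM in spontaneous labor litters 1 to 3. The groups overlapped, with a spontaneous labor litter lowest and a saline pump litter highest, and the log2 fold change was -0.07 ± 0.08 (SE, adjusted p = 0.99992, edgeR). Mt-nd4l, another complex I subunit, had litter means of 632, 640 and 726 CPM and of 686, 633 and 620 CPM in the same order. Its groups also overlapped (log2 fold change -0.05 ± 0.06, adjusted p = 0.99992, edgeR).

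Mt-nd6, the protein-coding gene on the minus strand, had litter means of 572, 590 and 671 CPM in saline pump litters and of 699, 594 and 571 CPM in spontaneous labor litters. The lowest and the highest litter both came from the spontaneous labor group, and the log2 fold change was 0.02 ± 0.08 (adjusted p = 0.99992, edgeR). The rRNA genes were the longer genes with the largest fold changes, and both overlapped between groups. Mt-rnr1 had litter means of 2495, 2927 and 3257 CPM in saline pump litters and of 3616, 2567 and 3082 CPM in spontaneous labor litters, with a log2 fold change of 0.11 ± 0.12. Mt-rnr2 had litter means of 2737, 3144 and 3834 CPM and of 3742, 3169 and 3252 CPM, with a log2 fold change of 0.08 ± 0.11. Neither passed (adjusted p = 0.99992 for both, edgeR). Without the 2 pups that stood apart, the values were 0.10 ± 0.07 and 0.08 ± 0.08.

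**Figure D3:**
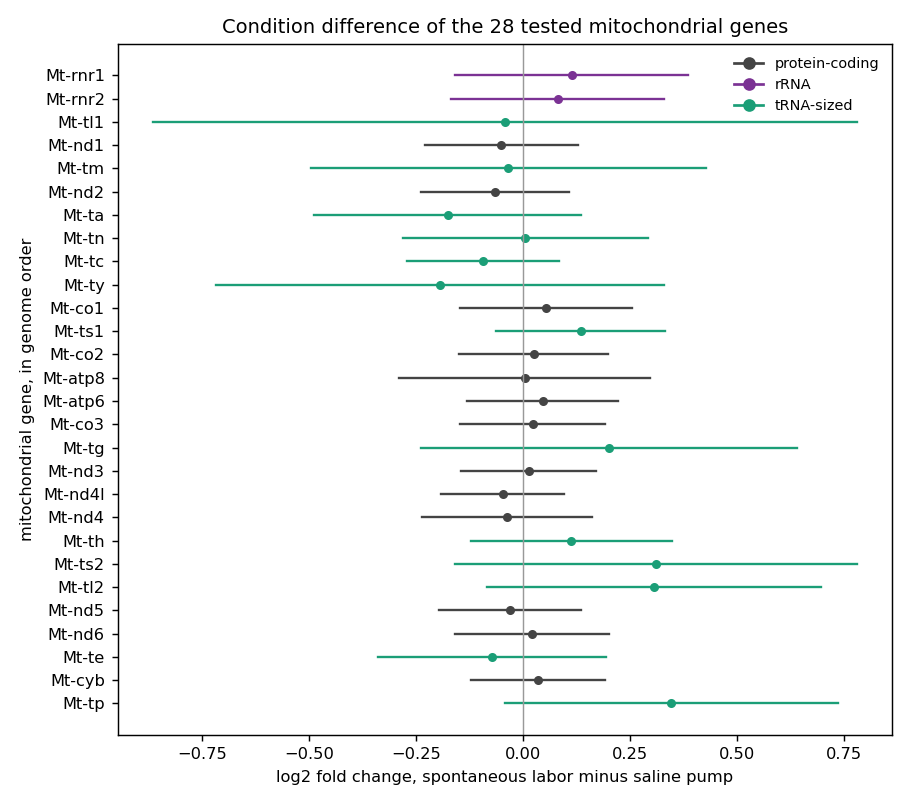
Log2 fold change (spontaneous labor minus saline pump, points) with its 95% interval (lines) for the 28 mitochondrial genes tested, in genome order, from edgeR on 3 litter sums per condition. Every interval includes 0, and the protein-coding genes lie between -0.07 and 0.05.

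Among the tRNA-sized genes, the fold changes were wider apart, from -0.19 to 0.35, with 7 above and 6 below 0. Mt-tp, the proline tRNA gene on the minus strand (MT, positions 15348 to 15415), had the smallest p of all mitochondrial genes. It was at 11.7, 11.4 and 14.1 CPM in saline pump litters 1 to 3 and at 20.9, 11.7 and 15.3 CPM in spontaneous labor litters 1 to 3, so spontaneous labor litters 1 and 3 lay above every saline pump litter and litter 2 did not. Its log2 fold change was 0.35 ± 0.17 (unadjusted p = 0.0751, adjusted p = 0.99992, edgeR), and it was 0.11 without spontaneous labor litter 1. Without the 2 pups that stood apart it was 0.42, with an unadjusted p of 0.0403 and an adjusted p of 0.999842 (edgeR). It was then the 1 of 28 mitochondrial genes at an unadjusted p under 0.05, against 2.42% of all genes tested.

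Mt-tl2, a leucine tRNA gene, was at 1.65, 1.60 and 2.01 CPM in saline pump litters and at 2.53, 1.70 and 2.26 CPM in spontaneous labor litters. The groups overlapped, and the log2 fold change was 0.31 ± 0.18 (adjusted p = 0.99992, edgeR) on 19 to 48 counts per pup. Mt-ts1, a serine tRNA gene on the minus strand, was at 44.5, 37.4 and 42.2 CPM and at 49.9, 45.0 and 42.8 CPM, again with overlap, and the log2 fold change was 0.13 ± 0.09 (adjusted p = 0.99992, edgeR). One tested gene, Mt-th for histidine, had all 3 spontaneous labor litters (5.51, 5.55 and 5.20 CPM) above all 3 saline pump litters (4.87, 5.07 and 5.09 CPM). This is 1 of 28 mitochondrial genes, against 6.04% of all genes tested that did not overlap in either direction.

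The summed shares overlapped between the conditions as well. The mitochondrial share of all counts was 5.21, 5.11 and 5.94% in saline pump litters 1 to 3 and 5.95, 5.62 and 4.999% in spontaneous labor litters 1 to 3. The means were 5.42 ± 0.456% and 5.52 ± 0.481% (SD, n = 3 litters each), a difference of 0.102 percentage points that was smaller than the SD of either group (exact two-sided permutation test over 6 litters, p = 0.9). This test has 20 assignments and cannot give a p below 0.1. The rRNA share of mitochondrial counts was 11.3 ± 1.04% in saline pump and 11.8 ± 1.42% in spontaneous labor litters (exact two-sided permutation p = 0.5). Without the 2 pups that stood apart it was 11.9 ± 0.0381% and 12.3 ± 0.426% (exact two-sided permutation p = 0.2). The tRNA-sized share was 0.223 ± 0.0101% and 0.23 ± 0.008% (exact two-sided permutation p = 0.5). Without the 2 pups it was 0.217 ± 0.00548% and 0.226 ± 0.0156% (exact two-sided permutation p = 0.4).

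Most protein-coding genes differed between litters of the same condition. In the pup-level test of differences between litters of one condition, with sex as a covariate, 12 of the 13 protein-coding genes, 0 of the 2 rRNA genes and 3 of the 13 tested tRNA-sized genes passed an adjusted p of 0.05 in edgeR. In all this was 15 of 28, against 33.7% of all genes tested. Without the 2 pups that stood apart it was 16 of 28, against 31.3%, and again 0 of the 2 rRNA genes passed. No share was computed for genes of like abundance, so the part of abundance in this excess was not tested. The p-values of this test rest on the spread among pups of a litter, which shared a dam. Whether the litters were also collected or prepared on different days is not given in the sources used here, so dam and handling cannot be told apart.

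The smallest adjusted p belonged to Mt-nd4 (0.00023), Mt-nd1 (0.000256) and Mt-co1 (0.000551, all edgeR). Mt-nd4, a complex I subunit, was at 2638 ± 143, 2538 ± 181 and 3164 ± 231 CPM in saline pump litters 1 to 3 and at 2906 ± 222, 2799 ± 56.7 and 2436 ± 132 CPM in spontaneous labor litters 1 to 3 (SD, n = 4 pups). Saline pump litter 3 was the highest and spontaneous labor litter 3 the lowest. Mt-nd1, a further complex I subunit, was at 3312 ± 211, 3227 ± 145 and 4043 ± 145 CPM and at 3499 ± 205, 3496 ± 120 and 3246 ± 247 CPM in the same order, and saline pump litter 3 was the highest. Mt-co1 was at 10767 ± 916, 9715 ± 610 and 11679 ± 711 CPM and at 12272 ± 1186, 11499 ± 747 and 9711 ± 460 CPM. Here spontaneous labor litter 1 was the highest.

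The protein-coding genes shifted largely together from litter to litter. Saline pump litter 3 had the highest mean of its condition for 12 of the 13 genes, and spontaneous labor litter 1 for 11 of 13. Spontaneous labor litter 3 had the lowest mean of its condition for 13 of 13 genes, and the lowest of all 6 litters for 11. Relative to the mean of the 6 litters, the median protein-coding gene stood at 0.13 on the log2 scale in saline pump litter 3 and at -0.14 in spontaneous labor litter 3. CPM are shares of one library total, of which mitochondrial genes took 4.74 to 6.44%. With library totals taken without mitochondrial counts, 15 of 28 mitochondrial genes passed the test between litters, against 33.9% of all genes tested. The part of the shared total in the joint shift was not tested. Without spontaneous labor litter 3, 7 of 28 mitochondrial genes passed the test between litters, against 30.6% of all genes tested. Mitochondrial genes then no longer passed more often than all genes tested. The count of 7 was the lowest with any 1 litter left out.

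**Figure D4:**
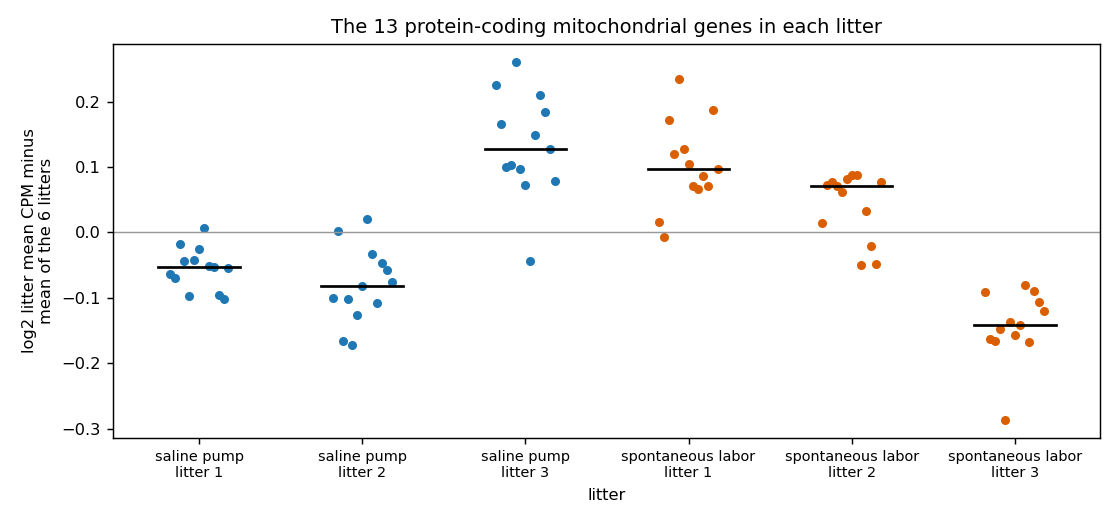
Litter mean CPM of each of the 13 protein-coding mitochondrial genes, as log2 difference from the mean of the 6 litters (points; line, median of the 13 genes). Medians run from -0.14 in spontaneous labor litter 3 to 0.13 in saline pump litter 3, and each condition has litters on both sides of 0.

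Mt-nd3, the complex I subunit that did not pass, had an adjusted p of 0.132 (edgeR). Mt-atp8 differed most between litters of one condition among the protein-coding genes, with an SD between litter means of 0.25 on the log2 scale. Its litter means ran from 779 to 1052 CPM among saline pump litters and from 720 to 1032 CPM among spontaneous labor litters (adjusted p = 0.00123, edgeR). The tRNA-sized genes that passed were Mt-ta for alanine (adjusted p = 0.0129), Mt-tp (adjusted p = 0.0179) and Mt-tl1, the other leucine tRNA gene (adjusted p = 0.0294, all edgeR). Mt-tl1 was counted only 4 to 20 times per pup. Mt-ta was lowest in spontaneous labor litter 3, at 6.77 CPM against 9.20 to 9.93 CPM in the other litters.

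The classes also differed in how far littermates lay apart. The SD within litters of log2 CPM was 0.08 to 0.18 for the protein-coding genes, with a median of 0.10, against a median of 0.13 over all genes tested. For the rRNA genes it was 0.45 (Mt-rnr1) and 0.40 (Mt-rnr2), and without the 2 pups that stood apart 0.21 and 0.19. Tested tRNA-sized genes had a median of 0.28 at far lower counts. The SD between litter means of one condition was 0.27 for Mt-rnr1 and 0.22 for Mt-rnr2, against 0.09 to 0.25 for the protein-coding genes. Without the 2 pups it was 0.11 for Mt-rnr1 and 0.13 for Mt-rnr2, against 0.08 to 0.26. With all 24 pups, the median SD between litter means was 0.125 over the protein-coding genes and 0.114 over all genes tested. The median protein-coding gene was thus near the median of all genes in this spread, and below it in the spread within litters. Mt-atp8 (0.18) and Mt-nd3 (0.15) lay above the median of all genes within litters, and the other protein-coding genes lay below it.

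Within litters, the members did not all rise and fall together. After litter means were subtracted in the 22 other pups, log2 CPM of Mt-rnr1 and Mt-rnr2 correlated with Pearson's r = 0.795 (permutation p = 0.00091, adjusted p = 0.0091) and Spearman's rho = 0.701 (permutation p = 0.00132, adjusted p = 0.0132), and r was 0.622 without the 2 pups farthest from the median of Mt-rnr1. These neighbours lie on either side of the valine tRNA gene on the plus strand. The summed rRNA genes and the summed protein-coding genes correlated with r = -0.04 (permutation p = 0.871, adjusted p = 0.871) and rho = -0.03 (permutation p = 0.899, adjusted p = 0.899), and r was 0.154 without the 2 farthest pups. Mt-nd6 and the sum of the 12 plus-strand protein-coding genes, which lie on opposite strands, correlated with r = 0.64 (permutation p = 0.00233, adjusted p = 0.0117) and rho = 0.663 (permutation p = 0.0048, adjusted p = 0.024), and r was 0.594 without the 2 farthest pups. Because strand use in counting is not known, Mt-nd6 counts may include reads of plus-strand RNA. Their part in this correlation was not tested. All values of a pup share its library total, and p-values were adjusted over 10 relations, 5 within litters and the same 5 over litter means.

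Over the means of the 6 litters, again without the 2 pups that stood apart, no relation passed an adjusted p of 0.05. The summed protein-coding and the summed rRNA genes had r = 0.913 (exact permutation p = 0.0431, adjusted p = 0.108), with rho = 0.771 (exact permutation p = 0.103, adjusted p = 0.206) and r = 0.984 without the 2 farthest litters. With all 24 pups in the litter means, r was 0.373 (exact permutation p = 0.428, adjusted p = 0.428 over 5 relations), rho was 0.429 (exact permutation p = 0.419, adjusted p = 0.497) and r was 0.879 without the 2 farthest litters. Mt-nd6 and the plus-strand genes had r = 0.869 over litter means (exact permutation p = 0.0153, adjusted p = 0.0509), rho = 0.771 (exact permutation p = 0.103, adjusted p = 0.206) and r = 0.82 without the 2 farthest litters. With all 24 pups this r was 0.819 (exact permutation p = 0.0514, adjusted p = 0.0949), rho was 0.886 (exact permutation p = 0.0333, adjusted p = 0.0833) and r was 0.856 without the 2 farthest litters. For Mt-rnr1 and Mt-rnr2, r was 0.713 (exact permutation p = 0.0653, adjusted p = 0.131), rho was 0.886 (exact permutation p = 0.0333, adjusted p = 0.111) and r was 0.773 without the 2 farthest litters. With all 24 pups this r was 0.913 (exact permutation p = 0.0194, adjusted p = 0.0949), rho was 0.943 (exact permutation p = 0.0167, adjusted p = 0.0833) and r was 0.809 without the 2 farthest litters. The other relations were of Mt-co1 with Mt-ts1 and of total counts with the rRNA share. Within litters, they had r = 0.106 (permutation p = 0.683, adjusted p = 0.853; rho = 0.0751, permutation p = 0.764, adjusted p = 0.848) and r = -0.48 (permutation p = 0.107, adjusted p = 0.153; rho = -0.25, permutation p = 0.366, adjusted p = 0.457). Their r without the 2 farthest pups was 0.0396 and -0.37. Over litter means they had r = 0.698 (exact permutation p = 0.106, adjusted p = 0.153; rho = 0.657, permutation p = 0.175, adjusted p = 0.292) and r = 0.0831 (exact permutation p = 0.824, adjusted p = 0.871; rho = 0.6, permutation p = 0.242, adjusted p = 0.345). Without the 2 farthest litters these were 0.00247 and 0.91, so both rest on few litters. With all 24 pups in the litter means, they were 0.753 (exact permutation p = 0.0569, adjusted p = 0.0949; rho = 0.657, permutation p = 0.175, adjusted p = 0.292) and -0.71 (exact permutation p = 0.126, adjusted p = 0.158; rho = -0.37, permutation p = 0.497, adjusted p = 0.497). Without the 2 farthest litters, these were 0.621 and -0.70. The 2 pups that stood apart had the lowest rRNA shares and the highest totals. Computed without them, the within-litter values of total counts and the rRNA share cannot show that relation over all 24 pups.

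The tRNA-sized genes were unevenly counted, with most counts on minus-strand genes. The 8 minus-strand genes held 39141 counts summed over 24 pups, or 88.1% of the 44412 tRNA-sized counts, and the 14 plus-strand genes held 5271. In single pups the minus-strand share ran from 86 to 92%. It was 88.2 ± 1.01% and 87.8 ± 0.138% in saline pump and spontaneous labor litters (SD, n = 3 litters each; exact two-sided permutation p = 0.7). The median gene had 3007 counts on the minus strand and 217.5 on the plus strand.

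Per length, Mt-ts1 (MT, positions 6865 to 6933) was the highest of the tRNA-sized genes at 632 RPKM (mean of 24 pups), with 15736 counts and 35.3 to 60.5 CPM in single pups. It follows Mt-co1 on the opposite strand and shares 3 nt with it. Mt-tc for cysteine (MT, positions 5185 to 5252) was at 418 RPKM with 10210 counts, and Mt-tp was at 209 RPKM with 5064. These minus-strand genes were followed by Mt-ta at 132 RPKM and Mt-tn for asparagine at 105 RPKM. Each of the plus-strand genes lay below these 5, the highest being Mt-th at 76.7 RPKM with 1865 counts. The tRNA-sized genes are only 60 to 75 nt long, and nearly all adjoin their neighbours within 5 nt. Reads that ran on into a neighbouring gene may not have been counted. A wider gap of 32 nt lies between Mt-tn and Mt-tc, and Mt-tp is the last gene in the order. The part of this in the order by RPKM was not tested.

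The remaining minus-strand genes were Mt-te for glutamate with 1386 counts, Mt-ty for tyrosine with 555 and Mt-tq for glutamine with 176. Of these, Mt-tq did not reach the minimum for testing. The other tested plus-strand genes were Mt-tg for glycine with 763 counts, Mt-tl2 with 697, Mt-tm for methionine with 504, Mt-ts2 for serine with 350 and Mt-tl1 with 238. In all, 9 tRNA-sized genes stayed below the minimum, with 33 to 233 counts over 24 pups, and 5 of them had no count in at least 1 pup. For a library of this size a count of 0 allows up to 3 counts. Because strand use in counting is not known, counts on a minus-strand tRNA gene may include reads of plus-strand RNA that runs across it, and their part in the 88.1% was not tested.

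**Figure D5:**
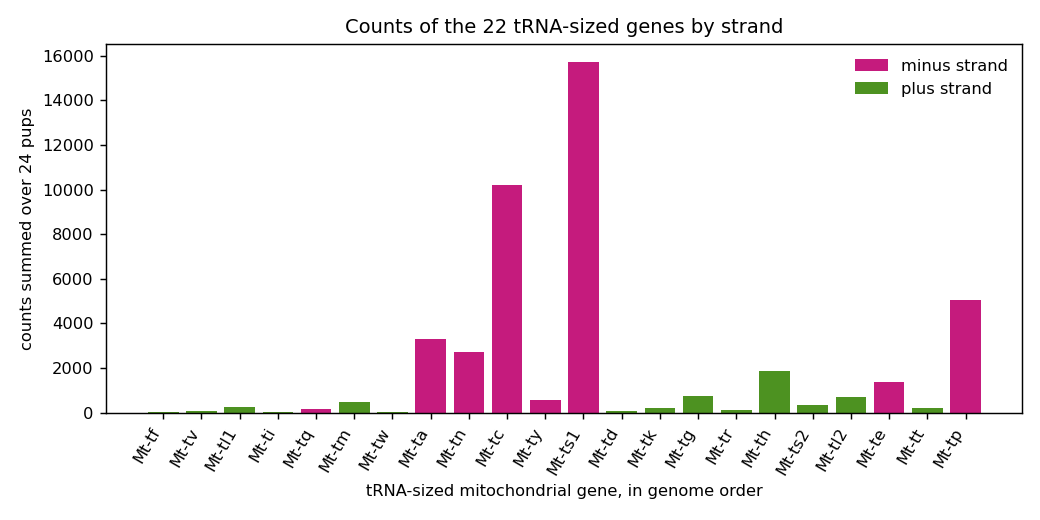
Counts summed over 24 pups for the 22 tRNA-sized genes in genome order (bars; pink, minus strand; green, plus strand). The 8 minus-strand genes hold 88.1% of these counts, and Mt-ts1 alone has 15736.

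Female and male pups were compared within litters. Of the 28 mitochondrial genes, 0 passed an adjusted p of 0.05 in edgeR with the litter as a block, against 0.0488% of all genes tested (7 genes). At an unadjusted p under 0.05 there were 2, Mt-nd1 and Mt-co1, against 9.49% of all genes tested. Mt-nd1 had a log2 fold change (female minus male) of -0.06 ± 0.03 (adjusted p = 0.503) and Mt-co1 of -0.07 ± 0.04 (adjusted p = 0.526, both edgeR). In all, 11 of 13 protein-coding genes had lower fitted values in female pups. The median difference was -0.05 over the 13, against -0.00033 over all genes tested. These 13 genes share a library total and shifted largely together between litters, so they are not 13 separate observations. The rRNA genes had differences of 0.21 ± 0.15 (Mt-rnr1) and 0.17 ± 0.13 (Mt-rnr2), and these were 0.04 and 0.0048 without the 2 male pups that stood apart. Without those pups, 0 mitochondrial genes were at an unadjusted p under 0.05, against 7.9% of all genes tested. The direction remained, with lower fitted values in female pups for 12 of 13 protein-coding genes.

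The mitochondrial share of all counts was 5.42% in female and 5.52% in male pups, lower on average in the female pups of 5 of 6 litters (exact two-sided permutation within litters, p = 0.415, adjusted p = 0.553 over 4 shares). The protein-coding share of all counts was 4.74% in female and 4.91% in male pups, lower in the female pups of 4 of 6 litters (exact permutation p = 0.152, adjusted p = 0.305). The rRNA share of mitochondrial counts was 12.4% in female and 10.7% in male pups (exact permutation p = 0.105, adjusted p = 0.305). Without the 2 pups it was 12.4% and 11.9% (exact permutation p = 0.418, adjusted p = 0.576). The difference between conditions did not pass as different between the sexes for any of the 28 genes (0 in edgeR, against 0% of all genes tested). At an unadjusted p under 0.05 there were 0 mitochondrial genes, against 3.73% of all genes tested, and the smallest p of the 28 was 0.0851 (Mt-nd6).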

How the data were processed

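Gene counts of 24 libraries were used as deposited. Per the labels and the methods of the study, the authors selected RNA with oligo-dT, aligned reads to Rnor_5.0 with STAR 2.0.4b and counted uniquely aligned, unambiguous reads with featureCounts. The deposited counts were not normalized. The authors also deposited CPM, the counts scaled to the library's total, and RPKM, the CPM per kilobase of gene length. Neither was tested. Condition and sex came from the labels and the litter from the identifiers that the deposited tables carry.

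Genes above 1 CPM in at least 4 pups were kept (14348). Counts of the 4 pups of a litter were summed, scaled by TMM and tested with edgeR 4.0.16 (quasi-likelihood, Benjamini-Hochberg over all genes, threshold 0.05). Litters were used because dams and not pups were assigned to a condition. Fits of pups as samples with surrogate variables, after the study's methods but with rRNA genes kept, were alternatives. Sex and the interaction were fitted on pups with the litter as a block, and litters with sex as a covariate. Standard errors were taken as the fold change divided by the root of the test's F. Litter means of shares were compared by exact permutation over 6 litters, and correlations by 100000 permutations within litters. A prior count of 0.5 was added for log2 CPM per pup. limma 3.58.1, sva 3.50.0 (6 surrogate variables) and DESeq2 1.42.0 served the alternatives in R 4.3.3. Shares and figures used Python 3.11.15, scipy 1.17.1 and matplotlib 3.10.9. The fits were tested on simulated counts. Leaving out the 2 pups with a low rRNA share was an alternative chosen after seeing the data.

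The members and lists were chosen with earlier results of these data known. The 15 longer genes are all named with their level, and litter values are given for both rRNA genes, for the minus-strand protein-coding gene, and for the 3 longer and 3 tRNA-sized genes with the smallest p by condition. The genes with the smallest p between litters, Mt-atp8, Mt-ta, Mt-th and the genes of the sex comparison were named after their values were seen. Lists of nuclear respiratory chain genes and of cell type markers could not be tested, because too few of their identifiers could be paired with symbols. Total counts of 12170547 to 19260066 per pup determine counting error, and condition differences are limited by how far the litters lie apart.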

Additional observations from a re-analysis of the deposited data

Results flagged for a closer look

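Within each set of 6 same-sex pups from one condition, 6 measures were screened for a pup set apart from the rest, which makes 24 screens, and chance sets apart about 1 in 20. Of these, 3 were. The rRNA share of mitochondrial counts was 4.83% in the first male pup of saline pump litter 1, against 11.1% in the nearest male pup of the group. It was 4.87% in the first male pup of spontaneous labor litter 2, against 11.1% in the nearest. The minus-strand share of tRNA-sized counts was 92% in the first male pup of saline pump litter 1, against 88.0% in the nearest. The same pup of saline pump litter 1 therefore stood apart in both measures, and it was also the library with the most counts. The cause was not tested.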

How the results depend on the processing

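Between conditions, no paired analysis was possible because the numbers in the labels only name pups within a litter, whereas sex was compared within litters. Over 17 alternatives for the condition, 0 mitochondrial genes passed in each. The most at an unadjusted p under 0.05 were 5 of 28, in voomWithQualityWeights over 24 pups with surrogate variables, against 10.7% of all genes, of which 11 passed the adjusted threshold. By sex and for the interaction 0 passed in each of 11 alternatives. Between litters the count was 7 to 14 of 28 when 1 litter was left out (all genes, 15.3 to 32%), with 7 without spontaneous labor litter 3 (30.6%). It was 15 to 16 of 28 under the other alternatives (31.3 to 35.3%), and 17 of 37 without a filter (20.5%). The direction of the condition difference was unstable for several values, and the cause was not tested. In male pups alone the mitochondrial share differed by -0.043 and the rRNA share by -0.648 percentage points, and Mt-rnr1, Mt-rnr2 and Mt-nd6 had log2 fold changes of -0.059, -0.105 and -0.045. In female pups alone the mitochondrial share differed by 0.247 and the rRNA share by 1.56 percentage points. Mt-rnr1, Mt-rnr2 and Mt-nd6 had 0.238, 0.228 and 0.092 in female pups. The tRNA-sized share of female pups differed by -0.00585 percentage points and Mt-nd2 had 0.0013. Both pups with a low rRNA share were male. With surrogate variables over 24 pups Mt-nd6 had -0.041, and -0.047 with voomWithQualityWeights. Leaving out 1 litter gave a mitochondrial share difference of -0.111 to 0.364, an rRNA share difference of -0.14 to 1.28 and a tRNA-sized share difference of 0.002 to 0.0121 percentage points. It gave -0.0091 to 0.225 for Mt-rnr1, -0.037 to 0.215 for Mt-rnr2, -0.065 to 0.085 for Mt-nd6 and -0.086 to 0.011 for Mt-nd4l on the log2 scale. The alternatives for nuclear respiratory chain genes were not run. Depth limits chiefly the tRNA-sized genes, of which 9 were not tested, and the 3 litters per condition limit the comparison of conditions.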
